A study of Mus musculus with 2 samples.

Results

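The liver X receptors (LXRs) and the genes through which macrophages export cholesterol were examined as a set of 10 genes, chosen by name (Apoe, Abca1, Abcg1, Nr1h2, Nr1h3, Mylip, Npc1, Npc2, Scarb1 and Lpcat3) out of 34745 gene identifiers in the expression table. All 10 were found, and all 10 reached the limit used here for a measured gene, a mean of at least 1 FPKM (fragments per kilobase of gene, scaled to the library total) over both libraries. The cells were primary bone marrow-derived macrophages of C57BL/6 mice, and every culture was treated with lipopolysaccharide (LPS), which activates macrophages through TLR4. One group was transfected with a control antisense oligonucleotide (Control-ASO, 1 library) and the other with an oligonucleotide named for Acly (AclyE14-ASO, 1 library). No library without LPS was analysed here, and the sources used here do not give the dose and time of LPS, the age of the mice or the number of mice behind each library.

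LXRs are nuclear receptors that sense oxysterols and other sterols. Nr1h3 encodes LXR-alpha and Nr1h2 encodes LXR-beta. Both pair with a retinoid X receptor and bind a direct repeat with a spacer of 4 bases, called DR4, near genes that remove cholesterol from the cell. In macrophages these include the transporters ABCA1 and ABCG1, which pass cholesterol to apolipoproteins and to high-density lipoprotein (HDL), and apolipoprotein E, which carries it away. Cytosolic acetyl-CoA, the product of the enzyme encoded by Acly, is the building block of sterols. TLR signalling is known to lower the activity of LXR on its targets in macrophages.

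Promoter sequence is shown for Apoe, the gene of the set with the greatest difference between the libraries, and for Abca1, a classical LXR target that lay on the other side. Both are the 250 bases before the RefSeq transcription start (GRCm38.p6, minus strand, 5′ to 3′). Apoe is at chr7:19699189-19699438 and Abca1 at chr4:53159896-53160145. Capitals mark the closest match to DR4, which reads in the direct-repeat sense on the opposite strand and has 3 mismatches. No capitals are used for Apoe.
Abca1: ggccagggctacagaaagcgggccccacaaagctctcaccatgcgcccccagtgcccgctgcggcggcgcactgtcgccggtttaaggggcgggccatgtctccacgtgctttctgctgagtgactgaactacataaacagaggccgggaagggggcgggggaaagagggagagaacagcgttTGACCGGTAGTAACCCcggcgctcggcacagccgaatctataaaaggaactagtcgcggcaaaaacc
Apoe: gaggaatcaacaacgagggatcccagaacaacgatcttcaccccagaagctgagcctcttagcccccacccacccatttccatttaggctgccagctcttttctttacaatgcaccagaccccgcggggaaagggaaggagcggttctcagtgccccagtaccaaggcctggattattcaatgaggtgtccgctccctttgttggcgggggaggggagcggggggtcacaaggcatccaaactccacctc

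DR4 was searched on both strands as 2 copies of AGGTCA in the same direction with 4 free bases between them, over RefSeq windows from 250 bases before to 50 bases after each start. There were 10 windows for 7 of the 10 genes, and none for Abcg1, Scarb1 or Npc1, which were not searched. With at most 2 mismatches over the 12 fixed letters, 0 of these 10 windows held a match, against 3.02% of all 32851 windows. At so low a share, 10 windows are too few to show a lack of matches. At 3 mismatches, a limit chosen after the sequences had been seen, 1 window matched, that of Abca1 from base -67 to base -52 counted from the start, but 21.9% of all windows did so too. The single half-site AGGTCA was in 0 of the 10 windows and in 16.3% of all. The letters TATAAA were in the windows of Abca1 (bases -29 to -24), Mylip (bases -32 to -27) and 1 of 3 Apoe starts, and in 13.6% of all windows. The matches describe these letters in these windows only.

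The libraries held 14215397 (Control-ASO) and 12751076 (AclyE14-ASO) gene counts over 14445 and 14653 detected genes. With 1 library per group there was no replicate, so differences are described by size without a test or p-value, and a difference may also hold culture-to-culture variation. Acly itself was lower in the AclyE14-ASO library, at 13.3 and 7.35 FPKM (log2 ratio -0.78). Each log2 ratio sets FPKM + 1 in the AclyE14-ASO library over that in the Control-ASO library, and a gene is called higher or lower at 1.5-fold, a log2 ratio of 0.58. Count ratios are per library total and carry exact 95% intervals that cover counting error only. The median of all 8658 measured genes was -0.13.

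Among the 10 genes 1 was higher by 1.5-fold, Apoe, and 2 were lower, Scarb1 and Abcg1, while 7 lay between. Of all measured genes 7.03% were higher and 8.48% lower by the same rule, so that 15.5% lay beyond 1.5-fold in either direction. The set's median log2 ratio was -0.27, with 6 genes below 0 and 4 above, and 64.9% of all measured genes lay below 0. Scarb1 (-0.60) and Abcg1 (-0.59) lay just past the limit. Centring the ratios on the median gene, a shift of 0.13, left 1 higher and 0 lower, against 9.83% and 4.69% of all genes, and rescaling with TMM factors (trimmed mean of M values) also left 1 and 0, against 8.67% and 5.84%. At 2-fold Apoe was the 1 higher gene and 0 were lower, against 3.18% and 1.55% of all genes. On counts alone, without a pseudocount, 1 was higher and 2 were lower, against 9.40% and 14.4%.

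**Figure D1:**
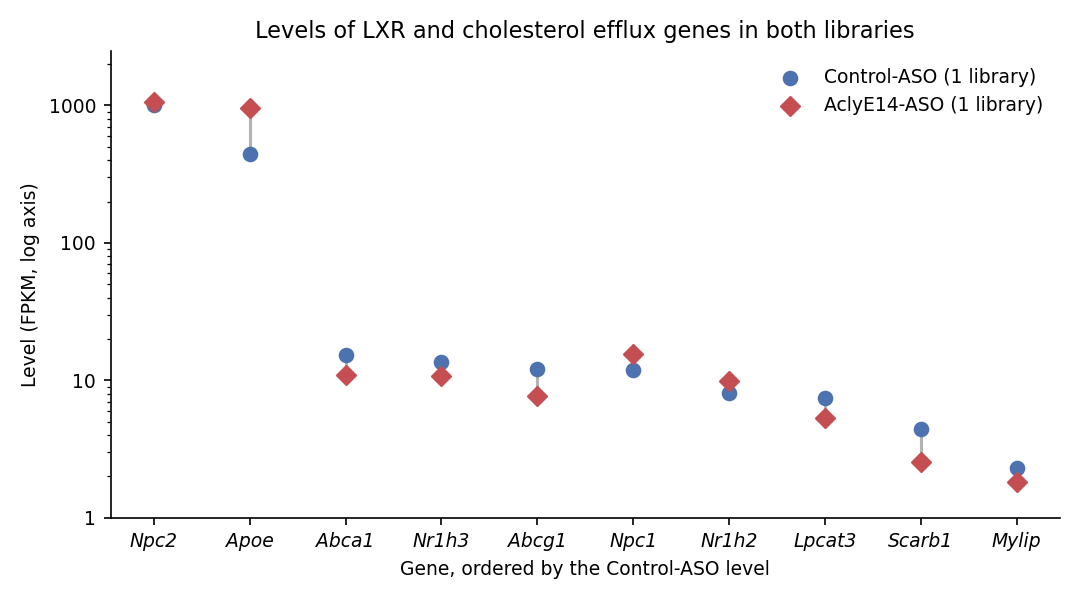
Level of each gene in FPKM (log axis) in the Control-ASO library (circles) and the AclyE14-ASO library (diamonds), 1 library each, with a line joining both values of a gene. Npc2 and Apoe lie at 446 FPKM or more in both libraries, the other 8 genes at 15.7 FPKM or less, and the widest gap is that of Apoe.

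Apoe, which encodes the lipoprotein ligand that macrophages secrete with cholesterol, was the gene that stood apart. Its level (ENSMUSG00000002985, on chromosome 7 from 19696109 to 19699188, minus strand, in GRCm38 as for all positions given here) stood at 446 FPKM in the Control-ASO library and at 956 FPKM in the AclyE14-ASO library, read from 35420 and 68137 counts. Those counts gave a ratio of 2.14 (2.12 to 2.17), and FPKM + 1 gave a log2 ratio of 1.10. Only 2.52% of measured genes had a higher log2 ratio. Apoe made up 0.249% of all gene counts in the first library and 0.534% in the second, and moved from rank 102 to rank 52 by FPKM in the table. Under the alternative settings its log2 ratio ranged from 1.09 to 1.23.

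The neighbours of Apoe in the apolipoprotein cluster were scarce. Apoc2, the cofactor of lipoprotein lipase, had 39 and 45 counts, a ratio of 1.29 (0.819 to 2.03) that includes no difference. Apoc4 had 3 and 0 counts, and Apoc1 had 0 in both libraries, which allows up to 3 counts. These neighbours were therefore too shallow to set beside Apoe.

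Apoe is also made by cells other than macrophages, and markers of stromal cells were higher in the same library. Of 15 fibroblast and stromal markers 8 reached 1 FPKM in the control library, of which 7 were higher by 1.5-fold, 0 lower and 1 between. By that rule 7.03% of all measured genes were higher and 8.48% lower. Col6a1 (0.466 and 5.16 FPKM), Pdgfra (0.338 and 2.22 FPKM) and Thy1 (0.243 and 3.44 FPKM) were higher too, but passed the expression limit only through the AclyE14-ASO library. Another 4 markers lay below it. The summed level of the list without Vim, which macrophages also express, was 59.2 FPKM in the Control-ASO library and 252 FPKM in the other, and none of the 15 was at 0 in both libraries. Postn had 0 and 5 counts. The macrophage list had 5 higher and 1 lower of 11 measured members, against the same 7.03% and 8.48% of all measured genes. Lyz2, the macrophage lysozyme, was at 9798 and 12276 FPKM and Csf1r, the receptor for the macrophage growth factor, at 64.7 and 50.7 FPKM. The adipocyte genes Adipoq, Lep, Plin1 and Cidec were at 0 in both libraries, while Fabp4, which macrophages also express, was lower at 90.8 and 47.3 FPKM. Summed Apoe counts do not say which cells made them: a different number of cells of a type and a different amount of RNA per cell cannot be told apart in bulk RNA. The part of stromal cells in the Apoe value was not tested.

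Of genes averaging 100 FPKM or more, the 3 with log2 ratios nearest that of Apoe were Hilpda (165 and 351 FPKM, log2 ratio 1.09), Tmsb4x (474 and 1033 FPKM, log2 ratio 1.12) and Zfp36 (84.7 and 178 FPKM, log2 ratio 1.06). Likeness here is the absolute difference in log2 ratio over 2 libraries, 0.0098, 0.025 and 0.034, and says nothing beyond that.

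Both transporters that move cholesterol across the plasma membrane had lower levels in the AclyE14-ASO library. Abca1, which loads lipid-poor apolipoprotein A-I (ENSMUSG00000015243, chromosome 4, 53030787 to 53159895, minus strand), was at 15.4 FPKM from 2311 counts and 10.9 FPKM from 1463 counts. Its count ratio was 0.706 (0.661 to 0.754) and its log2 ratio -0.47, short of 1.5-fold. Abcg1, which loads HDL (ENSMUSG00000024030, chromosome 17, 31057675 to 31117988, plus strand), was at 12.1 and 7.67 FPKM from 721 and 411 counts. Its count ratio of 0.636 had an interval of 0.562 to 0.718, which spans the 1.5-fold limit. The ratio of Abca1 was 1.11 times that of Abcg1 (0.966 to 1.28), an interval that includes no difference between the transporters.

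Scarb1, the gene of the HDL receptor SR-BI, which exchanges cholesterol with HDL in both directions, had the lowest count ratio of the set. It (ENSMUSG00000037936, chromosome 5, 125277087 to 125341094, minus strand) was at 4.41 FPKM from 770 counts and 2.56 FPKM from 401 counts. The count ratio was 0.581, and its interval of 0.513 to 0.656 lay wholly beyond 1.5-fold. Apart from Apoe no other gene of the set had an interval beyond 1.5-fold. Because Scarb1 is a low gene, its log2 ratio depended on the pseudocount, from -0.32 with 5 FPKM added, where Abcg1 (-0.43) and Abca1 (-0.36) were lower, to -0.78 on counts. Its ratio was 0.914 times that of Abcg1 (0.767 to 1.09), which includes no difference.

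**Figure D2:**
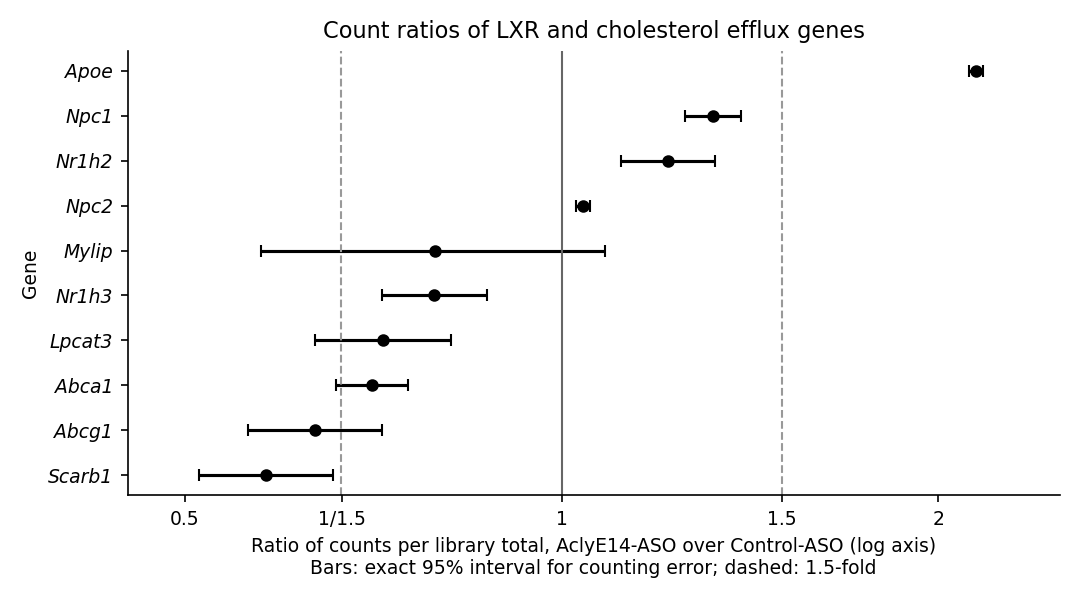
Ratio of counts per library total, AclyE14-ASO over Control-ASO (log axis), for the 10 genes, with exact 95% intervals for counting error and dashed lines at 1.5-fold in each direction. Apoe lies alone at 2.14, Npc1, Nr1h2 and Npc2 lie between 1 and 1.5, and the other 6 genes lie below 1, with the interval of Mylip crossing 1.

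The receptors themselves lay on opposite sides of no difference, both within 1.5-fold. Nr1h3, the LXR-alpha gene (ENSMUSG00000002108, chromosome 2, 91184061 to 91202834, minus strand), was at 13.7 FPKM from 1006 counts and 10.8 FPKM from 714 counts, a ratio of 0.791 (0.718 to 0.872). Nr1h2, the LXR-beta gene (ENSMUSG00000060601, chromosome 7, 44549616 to 44553951, minus strand), was at 8.08 FPKM from 999 counts and 9.82 FPKM from 1089 counts, a ratio of 1.22 (1.11 to 1.33). The ratio of Nr1h3 was 0.651 times that of Nr1h2 (0.571 to 0.742). Per length, Nr1h3 was 1.69 times as high as Nr1h2 with the control ASO and 1.10 times as high with the AclyE14-ASO.

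Partners and coregulators of the receptors mostly lay within 1.5-fold. Of 12 listed 8 were measured, of which 0 were higher, 1 was lower and 7 lay between, against 7.03% higher and 8.48% lower of all measured genes. The median log2 ratio was -0.22 against -0.13 for all genes. The retinoid X receptor genes Rxra (2.89 and 2.33 FPKM) and Rxrb (3.43 and 2.85 FPKM) lay within 1.5-fold, and Rxrg had 0 counts in both libraries. Pparg, a lipid-sensing receptor that acts upstream of LXR-alpha in macrophages, was lower, at 5.02 and 2.48 FPKM (ratio 0.493, 0.399 to 0.608). Its relative Ppard was at 2.13 and 3.47 FPKM (log2 ratio 0.52), and passed 1.5-fold on counts and after centring or TMM. The coactivator gene Ncoa3 had the highest level of the list, 17.3 and 12.1 FPKM, and the corepressor Ncor1 at 2.82 and 2.28 FPKM.

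Among the further targets of the set, Mylip and Lpcat3 lay within 1.5-fold. Mylip encodes the ubiquitin ligase IDOL. It (ENSMUSG00000038175, chromosome 13, 45389742 to 45412022, plus strand) was the scarcest of the set, at 2.30 FPKM from 100 counts and 1.82 FPKM from 71 counts. Its ratio of 0.792 had an interval of 0.576 to 1.08, so no difference was detectable at this depth. Lpcat3, which places polyunsaturated chains into membrane phospholipids (ENSMUSG00000004270, chromosome 6, 124663027 to 124704418, plus strand), was at 7.43 FPKM from 647 counts and 5.35 FPKM from 418 counts, a ratio of 0.720 (0.635 to 0.816). It shares 334 exon bases with Emg1 on the other strand. Added together, Lpcat3 and Emg1 gave a count ratio of 0.786 (0.721 to 0.857), on the same side of 1.

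The lysosomal export genes were level or slightly higher. NPC2 binds cholesterol in the lumen of the lysosome and hands it to NPC1 in the membrane. Npc2 (ENSMUSG00000021242, chromosome 12, 84754562 to 84773152, minus strand) was the most abundant of the set, at 1013 FPKM from 46964 counts and 1053 FPKM from 43800 counts, a ratio of 1.04 (1.03 to 1.05). Npc1 (ENSMUSG00000024413, chromosome 18, 12189692 to 12236400, minus strand) was at 11.9 FPKM from 2645 counts and 15.7 FPKM from 3133 counts, a ratio of 1.32 (1.25 to 1.39). The ratio of Npc1 was 1.27 times that of Npc2, with a log-normal 95% interval of 1.20 to 1.34. Npc1 shares 511 exon bases with Rmc1 on the opposite strand, and the counts of Npc1 and Rmc1 added together gave 1.25 (1.19 to 1.31).

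Neighbouring steps of sterol handling included higher genes of the lysosome. Of 20 genes of uptake, storage and transport 16 were measured, of which 5 were higher, 0 were lower and 11 lay between (median 0.05). Over all measured genes 7.03% were higher and 8.48% lower. Lipa, the acid lipase that frees the cholesterol passed to NPC2, was at 61.8 and 224 FPKM (ratio 3.62, 3.47 to 3.79). The scavenger receptor Msr1 (38.6 and 72.1 FPKM) and the lysosomal membrane genes Lamp1 (1036 and 1637 FPKM) and Lamp2 (48.2 and 79.7 FPKM) were higher too. So was the sterol transfer gene Gramd1a (4.80 and 7.94 FPKM), but its interval of 1.48 to 1.86 spans 1.5-fold. Not all lysosomal genes of the list were higher. Scarb2, also of the lysosomal membrane, was level at 36.5 and 37.0 FPKM (ratio 1.01, 0.965 to 1.06). Stard3 was at 31.9 and 37.0 FPKM (ratio 1.16, 1.10 to 1.23). Cd36, which takes up oxidized lipoprotein, was at 205 and 183 FPKM, and Soat1, which esterifies cholesterol for storage, at 7.99 and 8.54 FPKM. Nceh1, which hydrolyses stored esters, had levels of 18.2 and 12.8 FPKM, a ratio of 0.7005 (0.644 to 0.761), within 1.5-fold. The part of the stromal markers, 7 of 8 higher as given beside Apoe, in the higher genes of this list was not tested.

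Other LXR targets, outside the set of 10, lay on both sides of no difference, but those that passed 1.5-fold were all higher. Of 15 listed 9 were measured, 4 of them higher, 0 lower and 5 between, against 7.03% higher and 8.48% lower of all measured genes. The median was 0.25, which is the value of Apoc2, whose counting interval includes no difference. Pltp, the phospholipid transfer protein, was at 13.95 FPKM from 792 counts and 27.9 FPKM from 1420 counts, a ratio of 1.999 (1.83 to 2.18) close to that of Apoe. Smpdl3a, a phosphodiesterase gene, was at 129 and 208 FPKM (ratio 1.62, 1.56 to 1.68), and Abca7, a relative of Abca1, at 2.31 and 4.04 FPKM (ratio 1.75, 1.49 to 2.06). The interval of Abca7 spans 1.5-fold. Scd2, a fatty acid desaturase, had 46 and 130 counts and was below 1 FPKM in the control library, so it was measured only through its level in the other. Lpl, lipoprotein lipase, had levels of 58.1 and 42.6 FPKM, a ratio of 0.734 (0.706 to 0.763). Srebf1, the LXR-driven regulator of fatty acid synthesis, was at 4.49 and 4.04 FPKM, and its ratio of 0.899 (0.795 to 1.02) includes no difference. Arl4c (31.5 and 27.9 FPKM) and Mertk, the receptor for dying cells (18.5 and 20.8 FPKM), also lay within 1.5-fold. The stromal markers (7 higher of the 8 at 1 FPKM or more in the control library) were high in the same library as these genes, and their part was not tested.

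**Figure D3:**
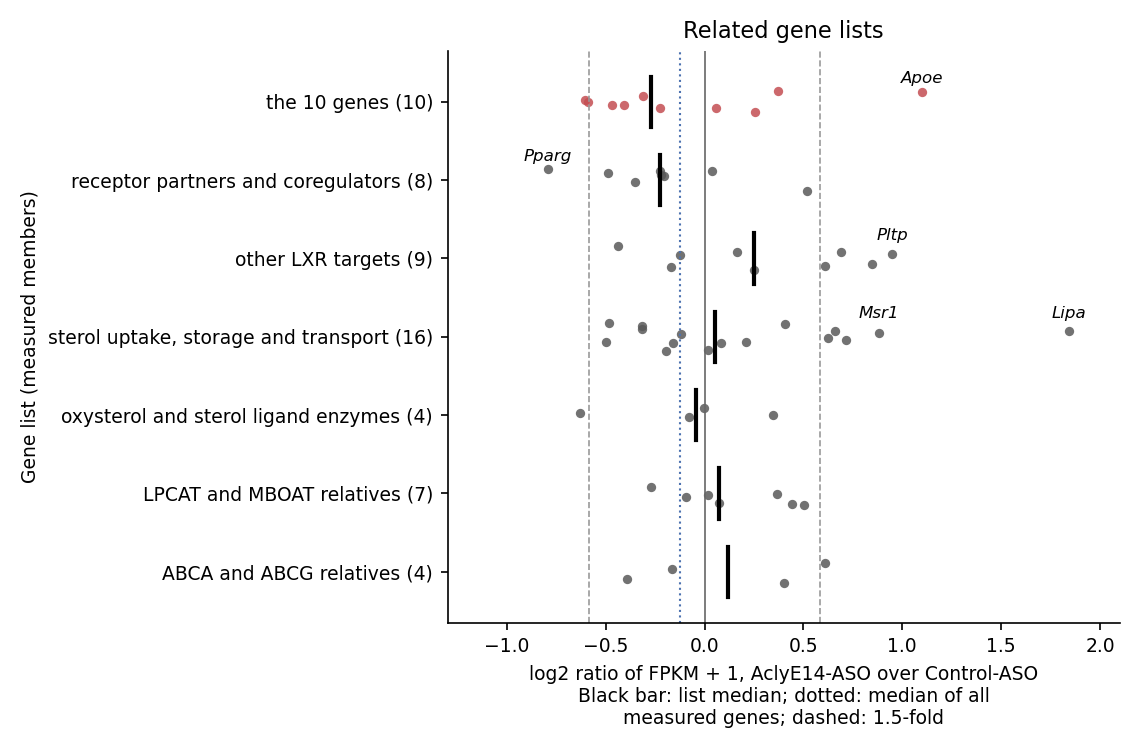
Log2 ratios (FPKM + 1, AclyE14-ASO over Control-ASO) for the 10 genes (top row) and the measured members of 6 related lists, 1 point per gene, with the list median as a black bar, the median of all measured genes (-0.13) as a dotted line and 1.5-fold as dashed lines. Points are spread vertically within a row for legibility, some genes are in more than 1 list, and the median of the 10 genes (-0.27) lies below and that of the other LXR targets (0.25) above the dotted line. The latter median is the value of Apoc2 (39 and 45 counts), whose counting interval includes no difference. Scd2 in that list was measured only through the AclyE14-ASO library.

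Enzymes that make or remove sterol ligands of LXR were few. Of 9 listed 4 were measured, of which 0 were higher and 1 was lower (median -0.04, turning positive after centring or TMM). The shares over all measured genes were 7.03% higher and 8.48% lower. Ch25h, which makes 25-hydroxycholesterol, was at 11.6 FPKM from 223 counts and 15.0 FPKM from 259 counts, a ratio of 1.295 (1.08 to 1.56). Hsd3b7, which acts on oxysterols on the way to bile acids, was lower at 3.38 and 1.83 FPKM (ratio 0.541, 0.446 to 0.654), but lay within 1.5-fold after centring or TMM. Cyp27a1, which makes 27-hydroxycholesterol, had 78 and 64 counts, a ratio of 0.915 (0.647 to 1.29).

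Relatives of the transporters and of Lpcat3 were mostly low or level. Of 16 ABCA and ABCG relatives 4 were measured, of which Abca7 was higher and 0 were lower (median 0.12), and 5 had 0 counts in both libraries. The interval of Abca7, 1.49 to 2.06, spans 1.5-fold. Abca3 (3.28 and 2.25 FPKM), Abcg2 (1.64 and 1.35 FPKM) and Abca2 (1.02 and 1.67 FPKM) lay between. Of 9 LPCAT and MBOAT relatives 7 were measured and 0 passed 1.5-fold on FPKM + 1 (median 0.07). By the same rule 7.03% of all measured genes were higher and 8.48% lower. Lpcat2, which acts in platelet-activating factor synthesis, was level at 9.90 and 10.03 FPKM. On counts alone Lpcat1 (178 and 256 counts, ratio 1.60, 1.32 to 1.95) and Lpcat4 (42 and 63 counts, ratio 1.67, 1.11 to 2.53) passed 1.5-fold, as did Abca2 (145 and 213 counts, ratio 1.64, 1.32 to 2.04). All 3 intervals spanned that limit, and Lpcat4, at 0.753 and 1.26 FPKM, passed the expression limit only through the AclyE14-ASO library.

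**Figure D4:**
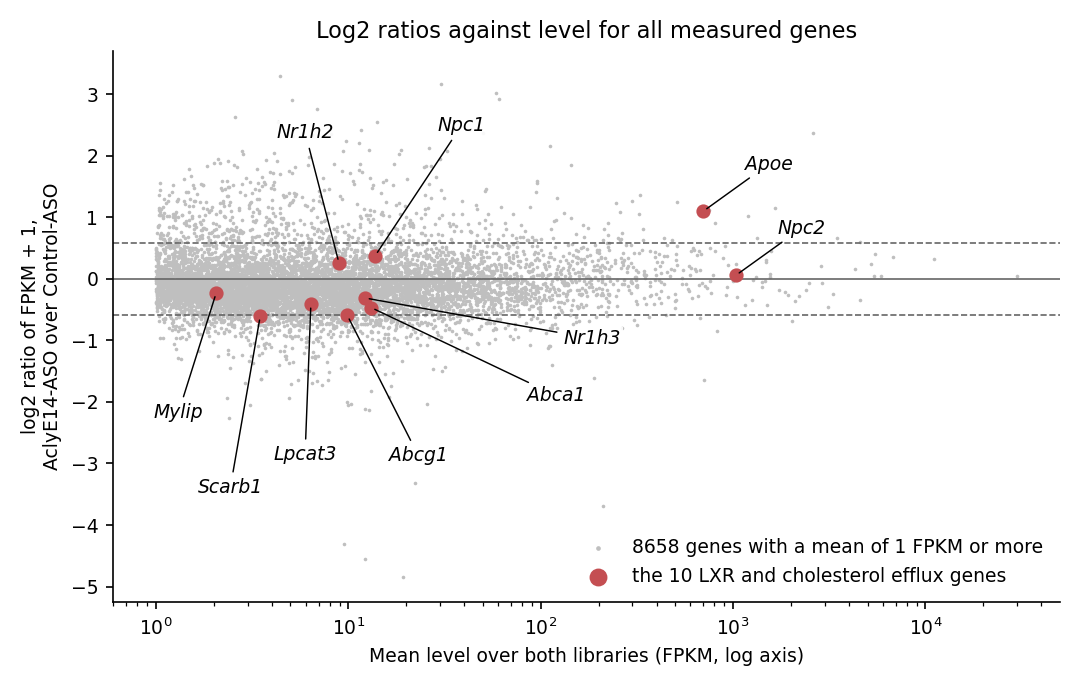
Log2 ratios (FPKM + 1, AclyE14-ASO over Control-ASO) against the mean level over both libraries (FPKM, log axis) for all 8658 measured genes (grey) and the 10 LXR and cholesterol efflux genes (red, labelled), with dashed lines at 1.5-fold. Apoe lies at 1.10 among abundant genes, and the other 9 lie between -0.60 and 0.37, in or at the edge of the band within 1.5-fold.

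The order of the levels changed in the middle of the set. With the control ASO it ran, per length, from Npc2 and Apoe through Abca1, Nr1h3, Abcg1, Npc1, Nr1h2 and Lpcat3 to Scarb1 and Mylip. Within it, Abcg1 and Npc1 (ratio 1.02, 0.935 to 1.10) and Nr1h2 and Lpcat3 (ratio 1.09, 0.984 to 1.20) did not differ beyond counting error. With the AclyE14-ASO Npc1 came next after Npc2 and Apoe, followed by Abca1, Nr1h3, Nr1h2, Abcg1 and Lpcat3, and Abca1 and Nr1h3 (ratio 1.01, 0.919 to 1.10) did not differ beyond counting error. Npc2 and Apoe led and Scarb1 and Mylip came last in both libraries. The level of Npc2 was 2.27 times that of Apoe with the control ASO and 1.10 times with the AclyE14-ASO. Apoe was 29.0 times as high as Abca1 in the first library and 88.0 times in the second. The summed level of the 10 genes was 1534 and 2074 FPKM, and without Apoe it was 1088 and 1118 FPKM.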

How the data were processed

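Per the file headers, the authors deposited 1 table with raw counts and FPKM per Ensembl gene for 1 Control-ASO and 1 AclyE14-ASO library. HISAT2, StringTie 1.3.0, edgeR and mm10 are named in the submitters' processing notes, without a role. The sources used here do not state if strand was used in counting or how shared reads were assigned. For genes above 20 counts in each library, the deposited FPKM per count differed between libraries by 1.1148 to 1.1149 times, and the count totals by 1.115 times.

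Symbols came from GENCODE M21 (GRCm38) by identifier, for 34267 of 34745 rows. The 478 rows without one held 0.175% and 0.136% of counts and stayed in the totals. Log2 ratios used FPKM + 1. Ratios of counts per library total carry exact 95% intervals (Clopper-Pearson, on the share of a gene's counts in 1 library), ratios between 2 genes' ratios exact conditional or, where named, log-normal ones. These intervals cover counting error only. Reads carried no molecular identifiers that the labels name, so repeated reads of 1 molecule may be counted separately. The intervals may then be too narrow even for counting error. The calculations were tested on simulated data. Promoter windows are RefSeq's (GRCm38.p6).

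The 10 genes, the 6 pathway lists, the 7 marker lists and the thresholds were chosen with earlier results of these data known. Some genes first listed are not reported here. Named were all 10 genes, Acly, list members at the ends or most abundant, others at 1 FPKM or more, and the 3 genes nearest Apoe. Apoc1, Apoc4, Rxrg, the adipocyte genes and Postn were named after their values were seen. Alternatives were pseudocounts of 0.1 and 5, counts alone, centring on the median over genes of at least 5 FPKM, TMM, other filters, 2-fold and sums over overlapping genes. Used were Python 3.11.15, NumPy 2.4.6, pandas 2.3.3, SciPy 1.17.1, Matplotlib 3.10.9, R 4.3.3 and edgeR 4.0.16 (TMM only).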

Additional observations from a re-analysis of the deposited data

How the results depend on the processing

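No paired analysis was possible because each group had 1 library, so no library could be left out either. Apoe was the 1 higher gene under every setting tried, and none of the 10 genes changed sign under any. The 2 lower genes, Scarb1 and Abcg1, numbered 0 with a pseudocount of 5 FPKM, after centring on the median gene, after TMM and at 2-fold. With a mean of at least 5 FPKM 1 lower gene was counted, since that limit leaves Scarb1 out, and the set's median moved from -0.27 to -0.13. Of 47 measured genes in the 6 related lists 11 lay beyond 1.5-fold, 9 higher and 2 lower, against 15.5% of all measured genes. The genes of these lists beyond the limit numbered 15 with a pseudocount of 0.1 FPKM and on counts alone. They numbered 6 with a pseudocount of 5 FPKM, 7 with a mean of at least 5 FPKM, and 1 at 2-fold. On counts 9.40% of all measured genes were higher and 14.4% lower, and at 2-fold 3.18% and 1.55%. The shares of all genes at the other pseudocounts and at the limit of 5 FPKM are not given here. In the lists, centring gave 11 higher and 1 lower. Over all 8658 measured genes the calls were 609 higher and 734 lower, 851 and 406 after centring, and 751 and 506 after TMM. Counts of the single lists stayed within 1.5 times in 72 of 96 cases and moved in 24, most of them counts of a few genes. A count of 0 that stayed at 0 was scored as unchanged. Many of the 72 were of this kind, so they do not measure how stable the called genes were. Summing over overlapping genes on either strand was chosen after seeing the data and moved no count of the 10 genes. Depth limited Mylip, Apoc2 and Cyp27a1, whose counting intervals included no difference.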
